A study of Solanum tuberosum with 6 samples.

Results

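Calcium sensors, the kinases they control and the 14-3-3 proteins were followed in potato leaves after salt watering. They were taken from the annotated clone table as every clone whose gene name held a word such as calmodulin, calcium-dependent, calcium-binding, calcineurin, CBL, CIPK, CDPK, EF-hand, annexin or 14-3-3, with calreticulin and calnexin left out. The rule found 52 of 10499 clones, with 40 distinct annotations. By the words of their annotation they fell into 8 clones of 14-3-3 proteins, 6 of calmodulins and calmodulin-like proteins, 5 of other calcium-binding proteins, 16 of CDPKs and related kinases, 7 of calcineurin B-like sensors (CBL) and their kinases (CIPK), 8 of calmodulin-binding proteins and 2 of annexins. The annotation names the most similar known gene. For 30 clones that gene is from potato or another member of its plant family, and for 11 it is from Arabidopsis.

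The plants were potato (Solanum tuberosum) of the cultivar PS3, grown from plantlets multiplied in vitro and kept in pots of soil and sand. The salt group received 75 mL of 150 mM NaCl at the start and the control group the same volume of tap water. The first and the second leaf were taken after 1 day and, from other plants, after 3 days. Each of 6 arrays, read in the dyes Cy3 and Cy5, set the leaf RNA of salt-watered plants against that of control plants of the same day, with 3 biological replicates per day, and salt RNA carried Cy3 on replicates 1 and 3 and Cy5 on replicate 2. Whole leaves of 1 cultivar were used, so that fewer cells of a type and less RNA per cell cannot be told apart.

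Calcium ions act as a messenger in plant cells: salt, drought or touch raise their level in the cytosol for a short time. Calmodulin and calmodulin-like proteins bind the ions through EF-hands, which are helix-loop-helix motifs, and then attach to target proteins. CDPKs carry the sensor and the kinase in the same protein, whereas CBL sensors have to bind CIPK kinases. In Arabidopsis a CBL and CIPK pair switches on the sodium exporter of the root plasma membrane. The 14-3-3 proteins dock onto phosphorylated partners, among them the plasma membrane proton pump, nitrate reductase and sucrose-phosphate synthase, and CDPKs can place such phosphates. Annexins bind to membranes when calcium is present.

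Values are log2 ratios of salt over control. The direction is likely rather than stated, and its basis is that the labels call the control the reference. Were the ratios control over salt, every rise given here would be a fall and every fall a rise, and the shares of higher and lower clones would change places. Arrays of opposite dye order ran the same way, which does not bear on the direction: among the 52 clones they correlated at 0.73 and 0.76 for day 1 and at 0.63 and 0.78 for day 3, across clones, which are not independent replicates. Base 2 was taken for the logarithm, so that every fold holds only for that base. The arrays measured from 7867 to 10381 clones. Replicate 1 of day 3 stood apart, with a correlation over all clones between -0.086 and 0.031 against the day 1 arrays, where the other day 3 arrays gave 0.081 to 0.486. Ratios give no level, so that the leaf identity of the samples was not checked. A list of leaf mesophyll clones (Rubisco small subunit, Rubisco activase, chlorophyll a/b-binding proteins and carbonic anhydrase) was measured on all arrays in 41 of 41 cases. Its medians were -2.09, -1.73 and -1.82 on replicates 1 to 3 of day 1, and 0.91, -0.32 and -0.35 on those of day 3.

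On day 1, 9 of the 50 tested clones were higher and 4 were lower after salt, at an adjusted p under 0.05 with limma over all clones. Over the whole array 8.15% of tested clones were higher and 10.2% were lower. The higher clones thus made up 18.0% of those tested here and the lower ones 8.0%. The higher clones were calmodulin-like and calcium-binding proteins, a CDPK, a calmodulin-binding protein and an annexin, and all 4 lower clones were 14-3-3 proteins. The median of the 50 clones was 0.02, next to 0.03 over all tested clones. Without replicate 1, 2 or 3 of day 1 the higher clones numbered 4, 5 and 4, and the lower ones numbered 3 in each case. Without replicate 1 of day 3 the lower clones numbered 7.

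On day 3, 4 of 45 tested clones were higher and 1 was lower, while 1.94% and 4.43% of all tested clones were, or 6.36% in either direction. The higher ones were Calmodulin-like protein 1, a pair of calcium-binding proteins and annexin p34, all of which had also risen on day 1. The lower one was 14-3-3 protein 10. Without replicate 2 of day 3 the counts became 2 and 0. Between the days the ratio rose in 2 clones and fell in 1 of 45, against 6.53% and 5.08% of all tested clones. Without any single array other than replicate 3 of day 3, the clones whose ratio fell between the days numbered 0. Averaged over both days, from the same arrays, 6 clones were higher and 4 lower, against 7.2% and 10.6%. The higher ones numbered 3 without replicate 2 of either day, and the lower ones 2 without replicate 1 or 2 of day 1 or replicate 2 of day 3.

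Of the 48 clones measured on all 3 arrays of day 1, 11 were above 0 and 13 below 0 on each of them, as were 24.9% and 23.1% of all clones so measured. On day 3 it was 14 and 6 of 37 clones, against 19.4% and 17.5%.

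**Figure D1:**
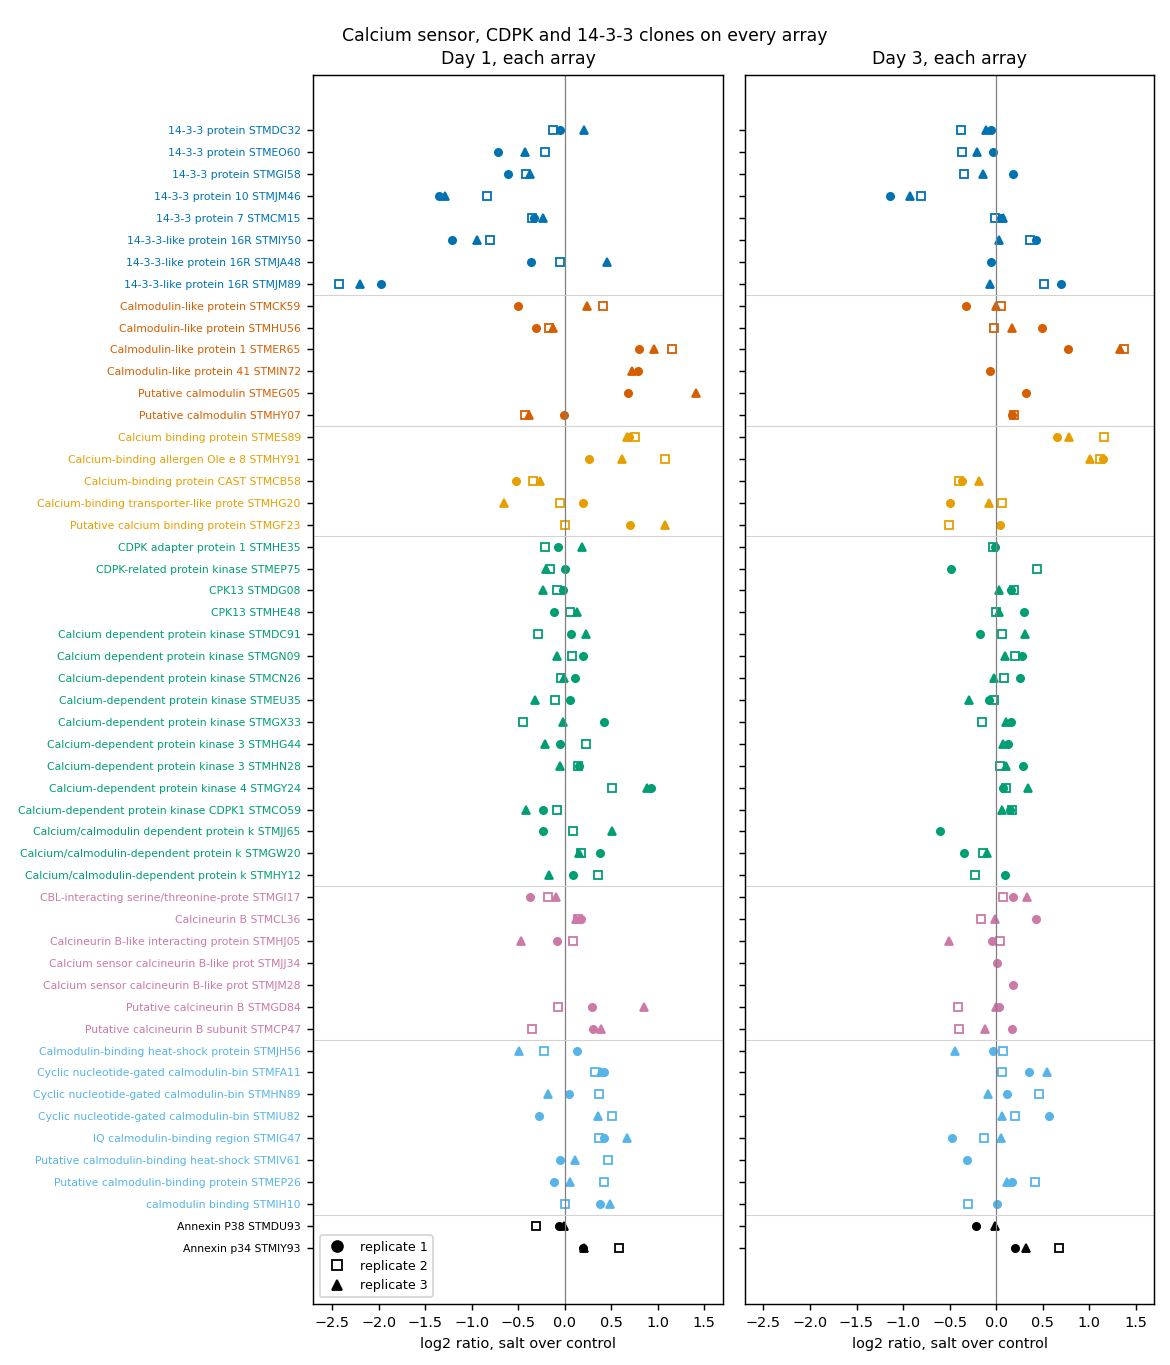
Log2 ratio of salt over control (horizontal axis) of each of the 52 clones (rows, coloured by class) on each array of day 1 (left) and day 3 (right). Circles, open squares and triangles are replicates 1, 2 and 3, and most clones lie near 0, apart from several 14-3-3 clones on the left of 0 and a few calmodulin-like and calcium-binding clones on the right.

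A clone of 14-3-3-like protein 16R (STMJM89) had log2 ratios of -1.97, -2.43 and -2.20 on replicates 1, 2 and 3 of day 1. On day 3 the same clone had 0.69, 0.52 and -0.06. All 3 arrays of day 1 were far below 0 and all 3 of day 3 were above them, with no overlap. The fitted ratio was -2.21 on day 1 (SE 0.17, adjusted p = 9.52e-05), a 4.63-fold lower signal, and 0.37 on day 3 (SE 0.17, adjusted p = 0.28). The difference between the days was 2.58 (SE 0.23, adjusted p = 0.000357), and it kept an adjusted p under 0.05 under each of 12 alternative settings.

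Another clone with the 16R annotation, STMIY50, took the same course at a smaller size. It had -1.21, -0.80 and -0.94 on day 1 and 0.43, 0.36 and 0.03 on day 3. Again the days did not overlap. The fitted ratio was -0.95 on day 1 (SE 0.13, adjusted p = 0.0011), and the difference between the days was 1.26 (SE 0.18, adjusted p = 0.00316). STMJA48, also named 16R, went another way: its ratios were -0.37, -0.06 and 0.45 on day 1 and -0.06 on replicate 1 of day 3, the only array of that day that measured it. Its fitted day 1 ratio was -0.0052 (SE 0.18, adjusted p = 0.991).

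STMJM89 and STMJA48 are listed in the same assembled contig, while STMIY50 is listed in another. Their fitted ratios of day 1 were 2.21 apart, whereas the other 5 pairs of clones here that shared a contig were within 0.25 of each other on day 1.

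14-3-3 protein 10 (STMJM46), named after a tomato isoform, was lower on both days. Its ratios were -1.35, -0.84 and -1.29 on day 1 and -1.14, -0.81 and -0.93 on day 3. All 6 arrays lay well below 0 and the days overlapped. The fitted ratios were -1.10 (SE 0.12, adjusted p = 0.00037) and -0.90 (SE 0.12, adjusted p = 0.00169), or 2.14-fold and 1.87-fold lower. The difference of 0.20 between the days had an adjusted p of 0.502 (SE 0.16). Without replicate 2 of day 3 the day 3 value had an adjusted p of 0.128, and the day 1 value passed under every alternative.

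The other 14-3-3 clones changed less. STMGI58, like a protein of the wild potato Solanum chacoense, had -0.61, -0.42 and -0.38 on day 1 and was called lower at -0.49 (SE 0.13, adjusted p = 0.0313). This call was lost when any replicate of day 1 was left out, with adjusted p up to 0.156 over the alternatives. STMEO60, which shares a contig with STMGI58, had -0.71, -0.21 and -0.43 and a fitted ratio of -0.44 (adjusted p = 0.0539). 14-3-3 protein 7 (STMCM15) had -0.33, -0.35 and -0.23 on day 1 and 0.06, -0.02 and 0.08 on day 3, without a call on either day (adjusted p = 0.081 and 0.949). STMDC32, with a potato annotation, stayed uncalled at -0.03 and -0.22. In all, 6 of 8 14-3-3 clones were below 0 on all 3 arrays of day 1 (background 23.1%). The median of the class was -0.47 on day 1 and -0.13 on day 3.

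**Figure D2:**
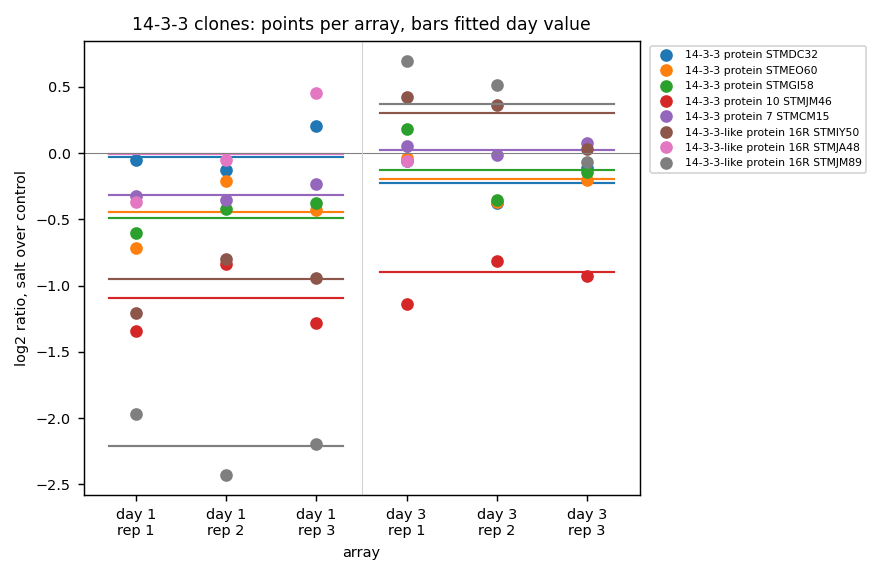
Log2 ratio of salt over control (vertical axis) of the 8 14-3-3 clones on each of the 6 arrays (horizontal axis), with points for arrays and horizontal bars for the fitted value of a day. The clones STMJM89 and STMIY50 lie below 0 on day 1. On day 3 they lie above 0, apart from STMJM89 at -0.06 on replicate 3. STMJM46 lies below 0 on all arrays, and STMJA48 is spread about 0 on day 1.

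The leaf mesophyll list moved in the same direction as the 16R clones STMJM89 and STMIY50, whereas the 16R clone STMJA48 was at -0.0052 on day 1. The list had a median ratio of -1.97 on day 1, where 37 of 41 of its clones were lower, against 10.2% of all tested clones. On day 3 the list had a median of -0.02, where 1 clone was higher and 2 were lower. These shares of 2.44% and 4.88% stood against 1.94% and 4.43% of all tested clones. The part of the mesophyll list in the 14-3-3 result was not tested. STMJM46 differed from that list in being lower on replicate 1 of day 3 as well, at -1.14, where the list had a median of 0.91. On replicates 2 and 3 of day 3 both were below 0, with STMJM46 at -0.81 and -0.93 and the list at -0.32 and -0.35. The 16R clones STMJM89 and STMIY50 were at 0.52 and 0.36 on replicate 2 of day 3, where the list was at -0.32. In a word list of known 14-3-3 partners, of 4 clones (a pair of plasma membrane H+-ATPase clones, sucrose-phosphate synthase and cytosolic glutamine synthetase) 0 passed with limma on either day, and 2 were lower on day 1 at an unadjusted p under 0.05. Over all tested clones 18.4% passed on day 1 and 6.36% on day 3. The fitted ratios of the 4 clones ran from -0.40 to 0.05 on day 1 and from 0.01 to 0.13 on day 3.

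Calmodulin-like protein 1 (STMER65), a calcium relay named after an Arabidopsis gene, was higher on both days. Its ratios were 0.79, 1.15 and 0.96 on day 1 and 0.77, 1.38 and 1.33 on day 3. Every array was well above 0, and the days overlapped. The fitted ratio was 1.02 on day 1 (SE 0.14, adjusted p = 0.00102) and 1.21 on day 3 (SE 0.14, adjusted p = 0.000769), or 2.02-fold and 2.31-fold higher. Both values passed under each of 13 alternative settings, among which the threshold of 0.1 cannot end a call.

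Other clones of the calmodulin class rose on day 1 or did not pass. A putative calmodulin (STMEG05) had 0.68 and 1.41 on replicates 1 and 3 of day 1, and Calmodulin-like protein 41 (STMIN72) had 0.79 and 0.72 on the same arrays. Replicate 2, the array with salt in Cy5, did not measure either clone, so that the dye term was dropped for both and a dye effect cannot be told apart from salt in them. Their fitted ratios were 1.04 (SE 0.20, adjusted p = 0.0111) and 0.76 (SE 0.15, adjusted p = 0.0121). On replicate 1 of day 3, the only array of that day for them, STMEG05 had 0.32 and STMIN72 had -0.06. Left to clones with a dye term, the higher clones of day 1 numbered 7 rather than 9. The remaining 3 clones of the class were not called on either day: a putative calmodulin like one of Solanum demissum (STMHY07) was at -0.30 and 0.18, and a pair named after a lancelet calmodulin-like protein lay at -0.23 and 0.19 (STMHU56) and 0.11 and -0.02 (STMCK59).

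A clone named Calcium-binding allergen Ole e 8 (STMHY91), after an EF-hand protein of olive pollen, was also higher on both days. The arrays gave 0.26, 1.07 and 0.62 on day 1 and 1.15, 1.11 and 1.00 on day 3. The day 3 values lay close together, while those of day 1 were spread from low on replicate 1 to high on replicate 2. The fitted ratios were 0.71 (SE 0.14, adjusted p = 0.00737) and 1.15 (SE 0.14, adjusted p = 0.00121). Without replicate 2 of day 1 the day 1 ratio was 0.46 with an adjusted p of 0.263. The difference of 0.44 between the days had an adjusted p of 0.192.

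A calcium-binding protein like one of the legume Sesbania rostrata (STMES89) gave 0.69, 0.76 and 0.67 on day 1 and 0.65, 1.16 and 0.78 on day 3. All 6 arrays were well above 0. Its fitted ratios were 0.75 (SE 0.12, adjusted p = 0.00239) and 0.91 (SE 0.12, adjusted p = 0.00169), and the day 3 call was lost without replicate 2 of day 3 (adjusted p = 0.148).

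The other clones of that class were less uniform. A putative calcium-binding protein like one of rice (STMGF23) had 0.71, 0.003 and 1.08 on day 1, and its fitted ratio of 0.47 (SE 0.14, adjusted p = 0.0449) lost its call without any 1 of the day 1 replicates. On day 3 it had 0.04 and -0.50 on replicates 1 and 2. The potato calcium-binding protein CAST (STMCB58) lay below 0 on all 6 arrays, from -0.52 to -0.18. It passed for the average of both days at -0.35 (SE 0.09, adjusted p = 0.023) and on neither day alone (adjusted p = 0.0577 and 0.18). The call for the average was lost without replicate 1 or 2 of day 1 or replicate 2 of day 3. A calcium-binding transporter-like protein (STMHG20) was at -0.12 on day 1 and -0.13 on day 3, with arrays from -0.66 to 0.20.

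**Figure D3:**
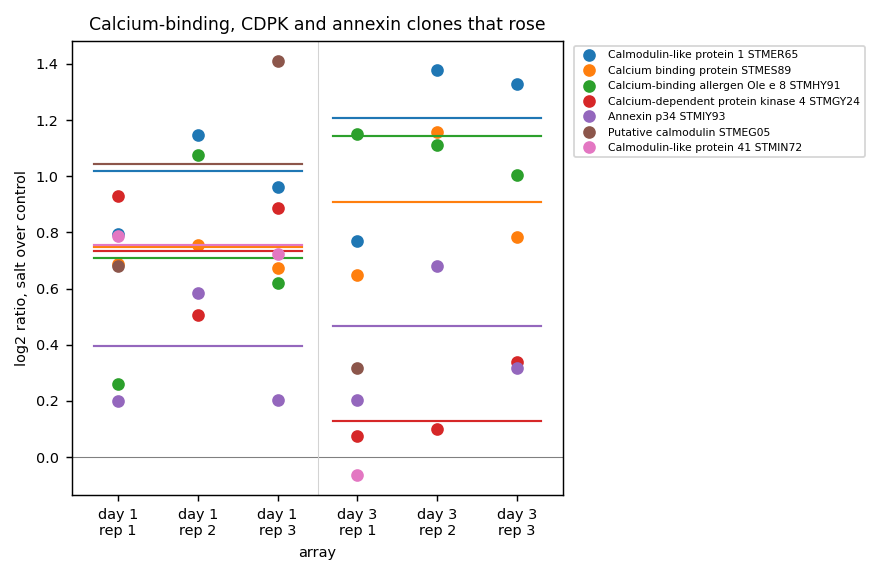
Log2 ratio of salt over control (vertical axis) on each of the 6 arrays (horizontal axis) for selected calcium-binding, calmodulin, CDPK and annexin clones described as higher. Points are arrays and horizontal bars the fitted value of a day. The clones STMGF23 and STMIG47, also called higher on day 1, and STMFA11, called higher for the average, are not shown. STMER65 and STMES89 lie well above 0 on every array, whereas STMGY24 lies near 0 on 2 of 3 arrays of day 3.

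Of 16 clones of CDPKs and related kinases 1 was higher on day 1 (6.25%), near the 8.15% of all tested clones, and 0 of 15 passed on day 3 with limma, where 0 also had an unadjusted p under 0.05 and 6.36% of all tested clones passed in either direction. The clone that passed was Calcium-dependent protein kinase 4 (STMGY24), named after a pepper CDPK. It had 0.93, 0.51 and 0.89 on day 1 and 0.08, 0.10 and 0.34 on day 3. The days did not overlap. The fitted ratio was 0.73 on day 1 (SE 0.12, adjusted p = 0.00286), a 1.66-fold rise that passed under each of 13 alternatives, and 0.13 on day 3 (SE 0.12, adjusted p = 0.661). The difference of -0.60 between the days (SE 0.17, adjusted p = 0.0467) lost its call under 8 of 12 alternatives, among them each left-out array, with adjusted p up to 0.163.

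The other 15 clones of this class had fitted ratios between -0.22 and 0.24 on day 1. The lowest was tomato CDPK1 (STMCO59), with -0.23, -0.09 and -0.42 on day 1 and 0.14, 0.17 and 0.06 on day 3. All day 1 arrays were below 0 and all day 3 arrays above, yet the difference of 0.37 had an adjusted p of 0.182. The highest was a clone of the tobacco calcium/calmodulin-dependent kinase CaMK3 (STMGW20), which had 0.38, 0.18 and 0.16 on day 1 and -0.35, -0.15 and -0.10 on day 3 (adjusted p = 0.138 for the difference of -0.43). The highest fitted ratios of day 3 were 0.28 for a clone of Calcium-dependent protein kinase 3 (STMHG44), from 0.12 and 0.08 on replicates 1 and 3 and a dye term, and 0.20 for a potato CDPK (STMGN09), from 0.28, 0.21 and 0.10. The CPK13 clones were at 0.01 and 0.10 (STMHE48) and at -0.10 and 0.14 (STMDG08) on the 2 days. CDPK adapter protein 1 (STMHE35), which the word CDPK brought in and which is no kinase, was at -0.06 and -0.02.

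The CBL and CIPK class gave 0 calls of 5 tested clones in any comparison with limma. Over all tested clones 18.4% were called on day 1 and 6.36% on day 3. For the difference it was 11.6% and for the average 17.8%. With 5 clones, 0 calls cannot be told apart from these shares. At an unadjusted p under 0.05 there were 0 on either day and for the average. For the difference between the days there were 1 higher and 1 lower, against 1208 and 1082 of all 9030 tested clones. Both clones annotated as the tomato calcineurin B-like sensor (STMJJ34 and STMJM28) were measured on replicate 1 of day 3 alone, at 0.01 and 0.18, and could not be tested. The clone like Arabidopsis CIPK11 (STMGI17) had -0.37, -0.18 and -0.09 on day 1 and 0.18, 0.07 and 0.34 on day 3. All day 1 arrays were below 0 and all day 3 arrays above, but the difference of 0.41 did not pass (SE 0.17, adjusted p = 0.159). The clones named calcineurin B lay between 0.02 and 0.27 on day 1 (STMCP47, STMCL36 and STMGD84), and a tomato CIPK (STMHJ05) was at -0.10 and -0.11.

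Among 8 clones of calmodulin-binding proteins, the targets of the sensor, 1 was higher on day 1 (12.5%, against 8.15% of all tested clones). It was a clone with a calmodulin-binding IQ region and a BAG domain (STMIG47), a co-chaperone family, with 0.43, 0.37 and 0.67 on day 1. On day 3 it had -0.48, -0.13 and 0.06, all below the day 1 arrays. The fitted ratio of 0.48 (SE 0.14, adjusted p = 0.0438) lost its call without any 1 of the day 1 replicates, and the difference of -0.67 between the days had an adjusted p of 0.0543. Of 3 clones named cyclic nucleotide-gated calmodulin-binding ion channel, a calcium-conducting family, STMFA11 was above 0 on all 6 arrays, from 0.06 to 0.55. It passed for the average of both days at 0.31 (SE 0.09, adjusted p = 0.0369), a call lost without any 1 array other than replicate 1 of day 3. STMHN89, which shares a contig with it, averaged 0.19 and STMIU82 averaged 0.27, without a call (adjusted p = 0.172 and 0.192). A putative calmodulin-binding protein like one of Arabidopsis (STMEP26) had -0.12, 0.43 and 0.05 on day 1 and 0.18, 0.42 and 0.12 on day 3. Its day 3 arrays were all above 0, and the fitted ratio of 0.30 did not pass (SE 0.11, adjusted p = 0.196). Another Arabidopsis-like clone (STMIH10) had 0.38, 0.01 and 0.49 on day 1, with a fitted ratio of 0.23 (adjusted p = 0.238), and 0.01 and -0.30 on replicates 1 and 2 of day 3. The calmodulin-binding heat-shock protein clones were at -0.17 (STMJH56) and 0.25 (STMIV61) on day 1, without a call.

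Annexin p34 (STMIY93), a potato annexin, was slightly higher on both days. Its ratios were 0.20, 0.59 and 0.20 on day 1 and 0.21, 0.68 and 0.32 on day 3. On each day replicate 2, with the dyes exchanged, was the highest. The fitted ratios were 0.40 (SE 0.11, adjusted p = 0.0368) and 0.47 (SE 0.11, adjusted p = 0.0387). The day 1 call was lost without any 1 of the day 1 replicates. The day 3 call was lost without any 1 array other than replicate 1 of day 3, and without the dye term neither day passed, with ratios of 0.33 and 0.40. Averaged over the days it was 0.43 (SE 0.08, adjusted p = 0.00567), and this call was lost without replicate 2 of either day. Annexin P38 (STMDU93), like a pepper gene, was at -0.17 and -0.25 without a call. Its day 3 value came from -0.21 and -0.01 on replicates 1 and 3 and a dye term.

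**Figure D4:**
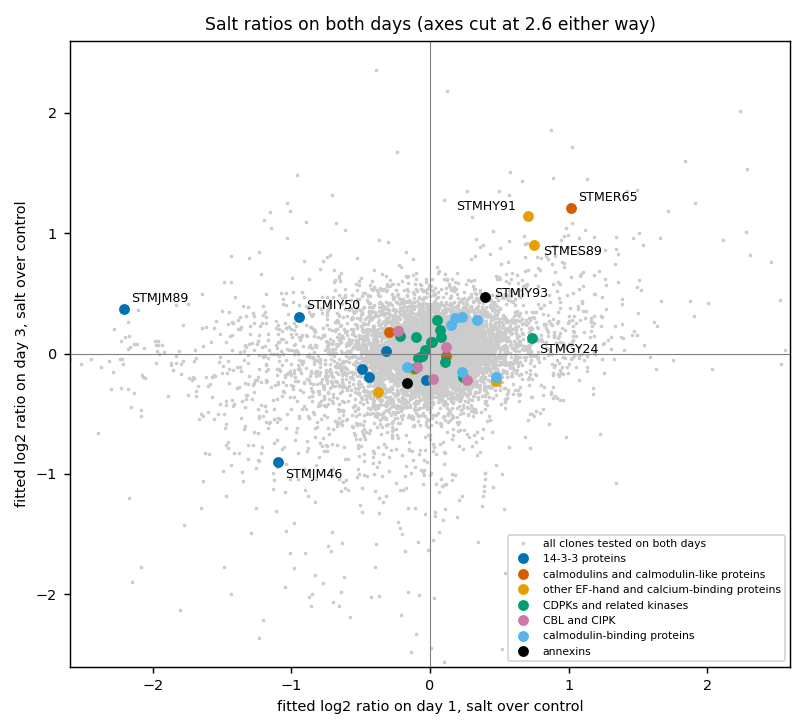
Fitted log2 ratio of salt over control on day 1 (horizontal axis) and day 3 (vertical axis) for the 45 clones tested on both days (coloured by class) and all clones tested on both days (grey, a few beyond the axes). STMER65, STMHY91 and STMES89 lie high on both axes, STMJM46 low on both, and STMJM89 and STMIY50 are low on day 1 alone.

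Between the days, 28 of the 45 clones kept the sign of their fitted ratio. The days come from different plants and have no array in common, but their fitted values share a dye term per clone. A fitted size over 0.5 was reached by 9 clones on day 1 and by 4 clones on day 3 (STMJM46, STMER65, STMES89 and STMHY91). The same counts of sign and size were not made over all clones, so that they do not set these clones apart.

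Genes around these sensors were read from word lists without the 52 clones. The calcium transport list had 7 tested clones on day 1, of which 2 passed with limma, both lower. It had 6 on day 3, of which 1 was higher and 1 lower. The 28.6% lower and 0% higher on day 1 stood against 10.2% and 8.15% of all tested clones. The 16.7% higher and 16.7% lower on day 3 stood against 1.94% and 4.43%. Cyclic nucleotide-gated ion channel 4 (STMIT24) went from 0.38, 0.02 and 0.11 on day 1 to 2.15, 2.01 and 2.52 on day 3, and the difference of 2.06 had an adjusted p of 0.00026 (SE 0.17). Another clone with that name (STMJD59) stayed between -0.18 and 0.42 on all arrays. Channel 6 of the same family (STMHZ73) was lower on both days, at -1.26 (adjusted p = 0.000406) and -0.95 (adjusted p = 0.00299). The two-pore calcium channel of the vacuole (STMGJ34) was at -0.55 on day 1 (adjusted p = 0.0299) with only replicates 2 and 3 measured, at -0.12 and -0.99.

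Phosphoinositide signalling, which makes lipid messengers and is linked to calcium release, had 5 of 26 tested clones higher and 0 lower on day 1. These shares of 19.2% and 0% with limma stood against 8.15% and 10.2% of all tested clones. On day 3, 0 of 23 were called with limma, where 6.36% of all tested clones were called in either direction. At an unadjusted p under 0.05, 2 were higher and 1 lower on day 3. A pair of putative phosphatidylinositol-4-phosphate 5-kinase clones rose by 0.82 (STMEU75, adjusted p = 0.00119) and 0.83 (STMHS78, adjusted p = 0.00217). An inositol 1,4,5-trisphosphate 5-phosphatase-like clone (STMIC36) was also higher on day 1, at 0.55 (adjusted p = 0.0101). A clone of 3-phosphoinositide-dependent protein kinase-1 (STMGT13) was at 0.69 (adjusted p = 0.00902). The other clones of that kinase name did not pass on day 1 (adjusted p from 0.0777 to 0.873). Phosphoinositide-specific phospholipase C (STMGI86) had 0.71, 0.29 and 0.84 on day 1 and a fitted ratio of 0.56 (adjusted p = 0.0193). Another phospholipase C clone of the same name (STMGZ29) had 0.00, 0.05 and -0.11 on day 1 and did not pass (adjusted p = 0.984). The median of the list was 0.10 on day 1 and 0.09 on day 3. Of 18 clones in the oxidative burst and MAP kinase list 3 were higher and 1 lower on day 1. These shares of 16.7% and 5.56% stood against 8.15% and 10.2% of all tested clones. MAP kinase phosphatase 1 (STMHE53) was at 0.72 on day 1 (adjusted p = 0.00541). On day 3, 0 clones of the list were higher and 1 was lower (5.56%), against 1.94% and 4.43% of all tested clones.

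Sodium and potassium transport, in part a target of the CBL and CIPK modules, had 1 of 9 clones higher on day 1 and 2 lower on day 3. These shares of 11.1% and 22.2% stood against 8.15% and 4.43% of all tested clones. Both lower clones of day 3 were named NHX1, the vacuolar sodium and proton exchanger. STMHY71 had 0.31, -0.29 and 0.27 on day 1 and -0.68, -0.88 and -0.57 on day 3. Its fitted day 3 ratio, with all 3 arrays below 0, was -0.78 (SE 0.12, adjusted p = 0.00349). STMEL10 was at -0.79 on day 3 (SE 0.15, adjusted p = 0.0148). The putative plasma membrane Na+/H+ antiporter (STMGI59) had arrays from -0.32 to 0.27 and no call on either day.

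**Figure D5:**
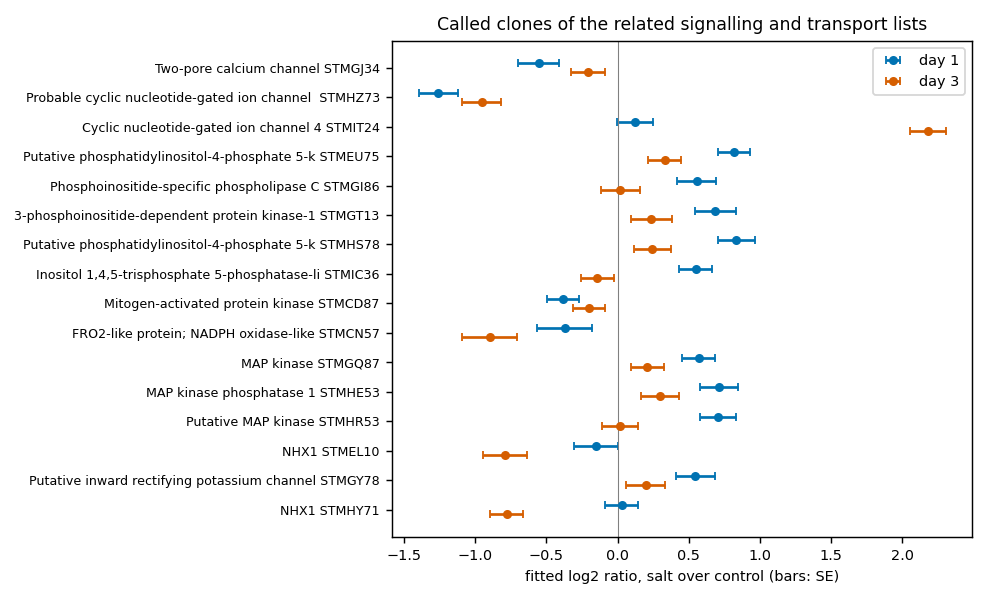
Fitted log2 ratio of salt over control (horizontal axis, bars are SEs) on day 1 and day 3 for the clones of the calcium transport, phosphoinositide, MAP kinase and ion transport lists that passed on either day. STMIT24 reaches 2.18 on day 3, and the phosphoinositide clones lie at 0.55 to 0.83 on day 1.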

How the data were processed

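The values are log ratios of both dyes per cDNA clone and array, which the authors deposited after their own processing. How the arrays were scanned, corrected, normalized and filtered was not given in the sources used here, nor was the base of the logarithm, and the deposited ratios were taken as log2. The authors' deposited table also gives p-values of a test for each day, used only for a count. Clones carry the gene names that the table lists and were not placed on a genome. Ratios were used as deposited, and an array's spot signals were not used here, so that the number of arrays limits the precision. The labels call the 3 replicates of a day biological.

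The fit, in R 4.3.3 with limma 3.58.1, estimated for every clone the ratio of either day and the dye effect, both days sharing a variance, moderated over all clones (eBayes). The dye term was dropped where the measured arrays held salt in 1 dye only. Clones with at least 2 arrays of a day and a residual degree of freedom were tested. P-values were adjusted by Benjamini and Hochberg over all clones tested, with a threshold of 0.05. SEs are those of the fit. The script was tested on simulated data. Alternatives were no dye term, equal array spread, only clones measured on all 6 arrays, a threshold of 0.1, a replicate block, each day alone and each array left out. Keeping only clones with a dye term was added after seeing the data. The threshold of 0.1 cannot end a call. Both selections of clones leave a clone's own ratio as it was, and change only the moderated variance and the adjustment.

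The 52 clones, the word lists (calcium transport, calcium stores, phosphoinositides, 14-3-3 partners, MAP kinases, ion transport, and markers of mesophyll, tuber, epidermis, vascular tissue and dividing cells) and the tests were chosen with earlier results of these data known. Described by rule were all clones past the threshold in any comparison and, in each class, the 3 smallest p of each day. Other clones were named, to account for their class, after their values were seen.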

Additional observations from a re-analysis of the deposited data

Results flagged for a closer look

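In 3 clones the salt ratio differed between the days by the test of the difference itself (limma, both days in 1 fit, Benjamini-Hochberg adjusted p under 0.05). The 14-3-3-like protein 16R clone STMJM89 rose by 2.58 on the log2 scale from day 1 to day 3 (adjusted p = 0.000357), and all 3 day 3 arrays lay above all 3 day 1 arrays. The 16R clone STMIY50 rose by 1.26 (adjusted p = 0.00316), again without overlap. Calcium-dependent protein kinase 4 (STMGY24) changed by -0.60 (adjusted p = 0.0467), with all day 3 arrays below those of day 1, and its adjusted p ranged from 0.0393 to 0.163 over the alternatives. The days were sampled on different plants.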

How the results depend on the processing

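Of 31 calls of single clones, 17 held under every alternative that could be computed, and no ratio that had passed changed sign. The threshold of 0.1 was among these alternatives and cannot end a call. The calls that held were 8 of 13 on day 1 and 2 of 5 on day 3. Those of day 1 include STMEG05 and STMIN72, for which only 8 alternatives each could be computed. On day 1 only replicates 1 and 3 measured these clones. They could not be tested without either of these replicates or with the replicate block, so that their calls could not be lost there. The alternatives gave 1316 values for 110 results of single clones, and only the 31 calls could lose a call. Over the alternatives, 65 values, from 14 of the 31 calls, lost it. Another 15 values, from 7 results without a call, gained it. The count of higher clones on day 1 (9) became 5 with each day fitted alone and ranged from 4 to 9 with an array left out. The lower clones of day 1 (4) became 7 at an adjusted p under 0.1 and ranged from 3 to 7 with an array left out. On day 3, with an array left out, the higher clones (4) ranged from 2 to 4 and the lower (1) from 0 to 1. For the difference, the clones that fell (1) became 0 without the dye term, 0 with arrays scaled to equal spread, 3 at an adjusted p under 0.1 and 2 with the replicate block, and ranged from 0 to 1 with an array left out. For the average, with an array left out, the higher clones (6) ranged from 3 to 6 and the lower (4) from 2 to 6. The cause of these shifts was not tested, beyond the fewer arrays or the looser threshold themselves.

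Over all clones, the higher calls of day 1 (811) ranged from 321 to 1190 and the lower (1018) from 453 to 1390 over the alternatives. On day 3 the higher calls (175) ranged from 27 to 351 and the lower (400) from 146 to 569.

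Deviations of same-numbered arrays of the days correlated at 0.046, 0.597 and 0.451 for numbers 1, 2 and 3. Replicates 2 and 3 of day 1 correlated best with the same number of day 3. Replicate 1 of day 1 correlated best with replicate 3 of day 3 (0.198). Whether the replicate numbers pair the arrays cannot be told from these values. Number 2 is also the exchanged dye order on each day. With the replicate block, Annexin p34 (STMIY93) had an adjusted p of 0.0503 on day 3. Signal over background was not analysed here.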

Other observations

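In the authors' deposited table, the p-value was under 0.05 for 13 of 50 of the calcium and 14-3-3 clones on day 1 (26.0%), against 20.0% of all clones with a p-value. On day 3 it was 6 of 45 (13.3%), against 11.2%.

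A pair of calnexin-like clones, chaperones that bind calcium in the endoplasmic reticulum, lay below 0 on all day 1 arrays and above 0 on all day 3 arrays. STMEN67 had -0.38, -0.09 and -0.35 on day 1 and 0.59, 0.39 and 0.35 on day 3. The ratio differed between the days by 0.72 (limma, adjusted p = 0.0245). STMIT84 differed by 0.58 without passing (adjusted p = 0.085). Neither passed on a single day with limma, although both had an unadjusted p under 0.05 on day 3.

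The other marker lists gave these counts with limma. In the tuber list 1 of 8 clones was lower on day 1. In the epidermis and wax list 3 of 10 were higher and 1 lower on day 1, and 3 of 9 were higher on day 3. In the vascular list 0 of 3 passed on either day, also at an unadjusted p under 0.05. In the list of dividing cells 11 of 51 were higher and 1 lower on day 1, and on day 3 0 of 49 passed, with 1 higher and 2 lower at an unadjusted p under 0.05. Their part in the results for the calcium and 14-3-3 clones was not tested.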
